A study of Mus musculus with 12 samples.

Results

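The axon guidance ligands and receptors of mouse lower motor neurons were described here by family: semaphorins with plexins and neuropilins, ephrins with Eph receptors, Slits with Robo receptors, and netrins with Unc5 receptors and Dcc. Members were chosen by gene symbol, as table entries beginning with Sema, Plxn, Epha, Ephb, Efna, Efnb, Robo, Ntn or Unc5, together with Slit1, Slit2, Slit3, Nrp1, Nrp2 and Dcc. This matched 74 of the 25965 entries, and the 68 with a mean of 20 or more counts over 12 libraries were kept. Neurons were cut by laser from the lumbar cord of C57BL/6 mice aged 5 months that carried Q331K, a substitution in the RNA-binding protein TDP-43 known from amyotrophic lateral sclerosis (ALS), knocked into Tardbp. The genotypes were Q331K/Q331K (homozygotes), Q331K/+ (heterozygotes) and +/+ (wild type), with 4 libraries each and no other allele or agent named. Whether the 4 libraries of a genotype were 4 separate animals is not stated in the labels, and the p-values then reflect only how these libraries spread.

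Guidance molecules steer growing axons by attraction or repulsion, and many stay expressed in adult neurons, where they act on synapses, branching and regrowth. Secreted class 3 semaphorins bind neuropilins, which signal through plexin-A receptors, while membrane-bound semaphorins bind plexins directly. Ephrins are membrane-bound and meet Eph receptor kinases on neighbouring cells, Slits repel through Robo receptors, and netrins attract through Dcc or repel through Unc5 receptors. In the embryo, Epha4, Ephb1, Nrp1 and Nrp2 help to sort spinal motor axons into their paths in the limb.

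Total counts ran from 60886825 to 83504446 per library. Tardbp had 75.6 ± 2.17 CPM in homozygotes, 73 ± 5.48 CPM in heterozygotes and 73.7 ± 7.68 CPM in wild type mice (SD, n = 4), where CPM is the usual depth-scaled count share of a gene, from the scaled library total. A knocked-in substitution need not change the amount of RNA, so this level does not check the genotype labels. Of 14 motor neuron markers, 13 were in the table, and Chat, which makes acetylcholine, was present in every library at 63.5 to 353 CPM. Slc6a5, the glycine transporter of inhibitory interneurons, stood at 123 to 293 CPM in 10 libraries, which therefore also held RNA of other neurons. Homozygote replicate 1 and heterozygote replicate 1 stood apart: they had 0 and 1.35 CPM of Slc6a5. Their summed motor neuron markers were 12533 and 12755 CPM, against 5296 to 9760 CPM in the other 10 libraries. Their summed inhibitory interneuron markers were 19.6 and 31.4 CPM, against 432 to 931 CPM. Both libraries carry the mutant allele, so genotype differences are given below with them and, for many members, also without them. Glial markers were also present in every library. Oligodendrocyte markers summed to 1630 and 1209 CPM in homozygote 1 and heterozygote 1, against 951 to 2853 CPM in the other 10 libraries. Astrocyte markers, of which Aldoc made up 50.2%, summed to 1678 and 1562 CPM there, against 1653 to 2212 CPM. The part of glial RNA in the members' values was not tested. In captured tissue of this kind, fewer cells of a type and less RNA per cell cannot be told apart.

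The windows around 6 transcription starts are shown first, because their genes took opposite positions in those 2 libraries. The ligands Slit2, Slit3 and Sema3a and the Sema3a co-receptor Nrp1 were higher there than in the other 10 libraries. The Slit receptors Robo1 and Robo2 were lower, and so was the ligand Slit1, whose window is not shown. These 6 were picked from the members outside the range of the other 10 libraries, all listed further below. Among all tested genes, 10.3% were above and 10.6% below the other 10 libraries in both. Each window runs 5′ to 3′ on the gene's strand from 250 bases before the RefSeq start to 50 bases after it, on build GRCm38.p6. Capitals mark the GC box, GGGCGG or its reverse complement CCGCCC, a motif known to be bound by the factor Sp1.
Nrp1 (chr8:128358823-128359122, + strand): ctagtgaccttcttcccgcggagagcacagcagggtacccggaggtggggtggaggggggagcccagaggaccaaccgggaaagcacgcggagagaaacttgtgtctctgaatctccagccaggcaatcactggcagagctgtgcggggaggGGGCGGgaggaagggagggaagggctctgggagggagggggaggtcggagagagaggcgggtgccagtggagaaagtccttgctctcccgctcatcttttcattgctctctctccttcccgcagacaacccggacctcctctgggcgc
Slit3 (chr11:35121206-35121505, + strand): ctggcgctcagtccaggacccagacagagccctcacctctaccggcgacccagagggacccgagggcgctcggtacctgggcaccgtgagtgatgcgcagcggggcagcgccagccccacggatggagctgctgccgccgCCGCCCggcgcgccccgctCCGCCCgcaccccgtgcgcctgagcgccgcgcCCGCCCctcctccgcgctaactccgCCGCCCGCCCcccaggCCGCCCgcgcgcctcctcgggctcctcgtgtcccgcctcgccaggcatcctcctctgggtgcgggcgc
Slit2 (chr5:47982905-47983204, + strand): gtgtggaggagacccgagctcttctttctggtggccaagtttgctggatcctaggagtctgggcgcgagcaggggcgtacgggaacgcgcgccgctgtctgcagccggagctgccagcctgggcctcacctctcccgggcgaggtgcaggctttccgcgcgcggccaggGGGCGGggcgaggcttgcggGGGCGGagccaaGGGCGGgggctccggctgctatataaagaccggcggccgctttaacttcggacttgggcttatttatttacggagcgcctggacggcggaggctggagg
Sema3a (chr5:13396534-13396833, + strand): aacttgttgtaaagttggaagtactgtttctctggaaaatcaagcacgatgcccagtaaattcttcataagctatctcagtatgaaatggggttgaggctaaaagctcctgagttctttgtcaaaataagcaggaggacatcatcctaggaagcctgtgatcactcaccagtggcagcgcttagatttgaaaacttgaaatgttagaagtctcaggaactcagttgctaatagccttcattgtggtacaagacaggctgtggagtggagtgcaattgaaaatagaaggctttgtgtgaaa
Robo1 (chr16:72662899-72663198, + strand): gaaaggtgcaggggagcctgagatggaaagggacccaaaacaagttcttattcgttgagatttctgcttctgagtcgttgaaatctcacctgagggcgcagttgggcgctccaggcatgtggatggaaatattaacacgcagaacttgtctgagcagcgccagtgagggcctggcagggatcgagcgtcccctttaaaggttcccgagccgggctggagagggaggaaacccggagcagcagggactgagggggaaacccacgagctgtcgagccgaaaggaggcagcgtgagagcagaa
Robo2 (chr16:74411776-74412075, - strand): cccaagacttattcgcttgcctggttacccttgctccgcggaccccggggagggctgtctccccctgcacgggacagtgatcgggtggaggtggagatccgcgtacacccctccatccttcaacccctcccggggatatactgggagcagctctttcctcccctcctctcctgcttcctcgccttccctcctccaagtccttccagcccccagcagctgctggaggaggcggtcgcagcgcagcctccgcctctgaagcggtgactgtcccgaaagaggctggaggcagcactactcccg

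The windows of the 4 genes that were higher differed in composition. Slit3 held 41 CpG dinucleotides and 6 GC boxes, 2 of which overlap, and Slit2 held 30 CpG and 3 GC boxes. Nrp1 held 14 CpG and 1 GC box, while Sema3a held 2 CpG and no GC box. The Robo1 and Robo2 windows held 15 and 17 CpG and no GC box on either strand. Each GC box contains a CpG, so the counts are not independent. The median was 7 CpG over all 32851 RefSeq windows and 20 over the members' windows. A GC box was found in 35.7% of all windows and in 71.2% of the 73 windows of members, which cover 57 of their 67 symbols. Members had to pass a count threshold and the genes of all windows did not, so the 2 sets differ in more than gene family. The TATA box TATAAA, or TTTATA on the other strand, was found once, in Slit2, and in 13.6% of all windows. The homeodomain core TAATTA was in none of the 6 and in 5.29% of all. The RefSeq start matched the start of the deposited entry for 5 of these genes and lay 232 bases from it for Slit3. Robo2 has 3 RefSeq windows, and the one nearest the deposited entry's start is shown.

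All 68 members passed the filter on low counts and were tested. They were 67 guidance entries of 66 genes and Unc50, which the prefix Unc5 matched by its letters and which is no netrin receptor. Unc50 averaged 129 ± 8.7 CPM in homozygotes, 127 ± 12.6 CPM in heterozygotes and 118 ± 5.38 CPM in wild type mice (SD, n = 4), and no comparison called it. Ntng1 had a main entry and a further entry of 327 bases, and the short entry was left out of levels per length. The 6 entries left out were Sema3g, Ntn5, Efna4, Plxnd1, Unc5cl and Ephb4, with mean counts of 0.0833, 0.417, 2.25, 5.83, 6.08 and 9.5. Ephb4 was thus just outside the threshold and Robo3, with a mean count of 20.1, just inside. Plxnd1, Ephb4 and Sema3g, known for their roles in blood vessels, were among those left out. The 10 endothelial markers summed to 11.7 to 46 CPM per library, of which Ly6c1 took 3.86 to 17 CPM, and Cdh5 and Pecam1 reached no more than 0.841 and 1.78 CPM.

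Levels of different genes were compared as CPM per kb of exon. Efna3, a membrane-anchored ephrin-A, led with 24.7 ± 2.75 CPM per kb (SD, n = 12), although the deposited counts of Gm15998, an entry that overlaps it, equalled 31.6% of its own. The kits used keep no strand, so reads from exons that overlap cannot be separated. Overlap was judged by whole gene spans and not by exons, so how far this level is affected is uncertain. Ephb6, an Eph receptor without kinase activity, was at 13.6 ± 2.4 CPM per kb, and Sema7a, a membrane-anchored semaphorin, at 13.6 ± 2.02 CPM per kb. The netrin receptor Unc5a followed at 12.3 ± 2.53 CPM per kb. These last 3 did not differ beyond their spread. Slit3, Sema6b, Epha10 and Plxna1 came next at 9.09, 7.48, 6.27 and 6.24 CPM per kb. The median guidance gene was at 1.29 CPM per kb, and the lowest were Robo4, Ntn1 and Robo3 at 0.0985, 0.0748 and 0.0411 CPM per kb.

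**Figure D1:**
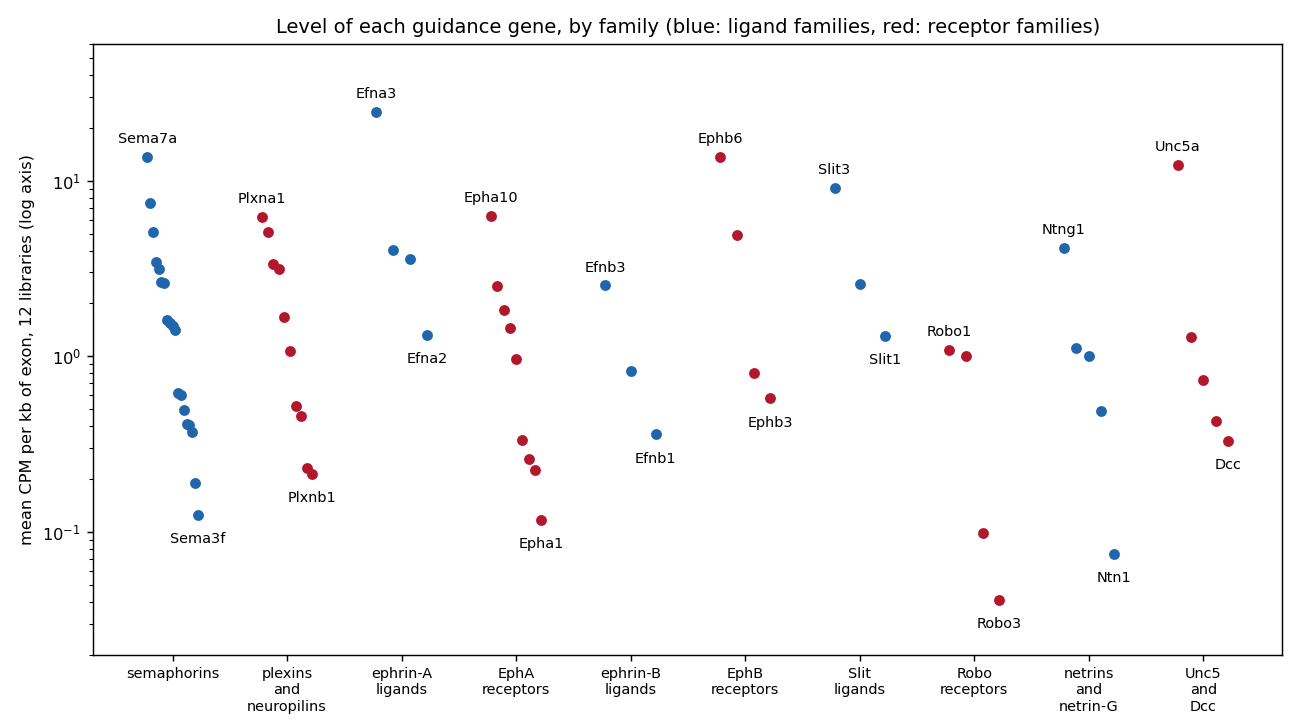
Mean level of each guidance gene over the 12 libraries, in CPM per kb of exon on a log axis, by family, with blue points for ligands and red points for receptors. Efna3 is highest at 24.7 CPM per kb, and members of a family lie far apart, as Sema7a at 13.6 and Sema3f at 0.125 CPM per kb do.

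How far a member varied between libraries went with its depth. The 17 guidance entries with 20 to 200 mean counts had a median coefficient of variation of 81.8% over the 12 libraries, and 8 of them had at least 1 library with 0 counts. At 200 to 1000 mean counts, 25 entries had a median of 49.5%. At 1000 or more, 25 entries had a median of 24.1%, from 11.1% for Efna3 to 69.1% for Nrp1. Nrp1 was therefore the most variable of the well-covered members.

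No member passed the test between genotypes after adjustment over all tested genes with edgeR. Between homozygotes and wild type, 0 of 68 members passed an adjusted p of 0.05, and 0.00612% of the 16338 tested genes did. Between heterozygotes and wild type, 0 of 68 members passed, against 0% of all genes, and between homozygotes and heterozygotes the values were 0 of 68 and 0%. At an unadjusted p below 0.05 the members numbered 0 between homozygotes and wild type (background 4.82%). They numbered 4 (5.88%) between heterozygotes and wild type, where the background was 4.1%. Between homozygotes and heterozygotes they numbered 6 (8.82%), where the background was 2.97%. The comparisons share libraries, so these counts are not independent of each other. With DESeq2 and limma-voom, too, 0 members were called in each comparison. The median log2 difference of the 68 members was 0.01 for homozygotes minus wild type, 0.02 for heterozygotes minus wild type and 0.05 for homozygotes minus heterozygotes, and over all tested genes it was 0.00 in each.

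**Figure D2:**
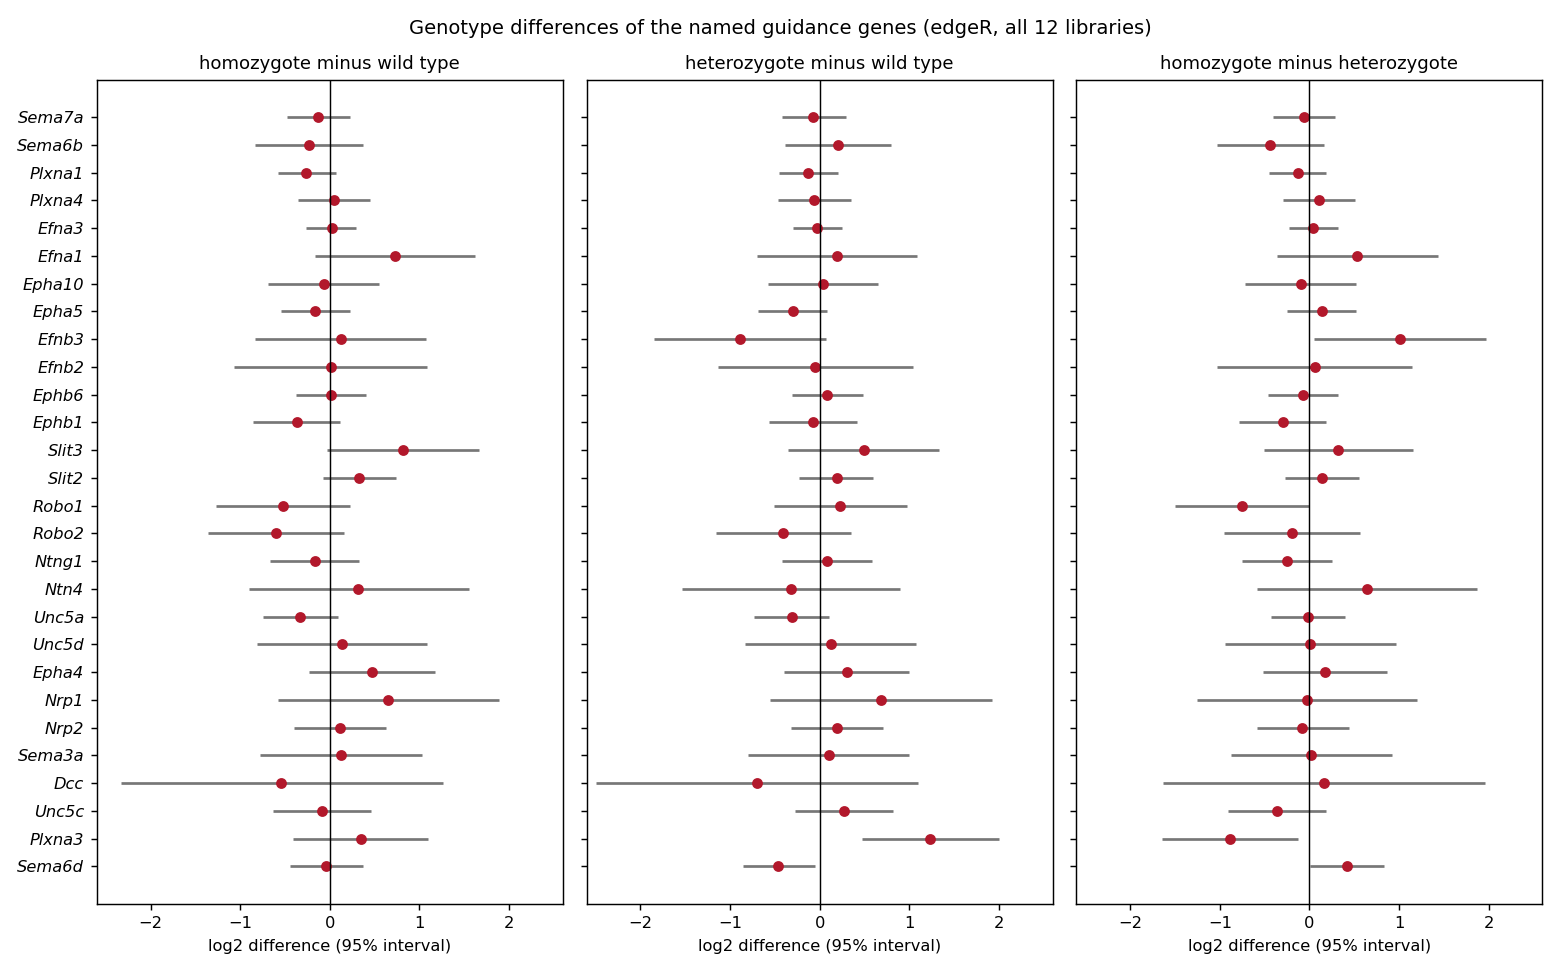
Log2 difference (points) and 95% interval (lines) of 28 named guidance genes in the 3 genotype comparisons, from edgeR on all 12 libraries, with the genotype named first on top of the difference. No interval for homozygotes minus wild type leaves 0, and no adjusted p in any comparison was below 0.05. Intervals leave 0 for Plxna3 and Sema6d in heterozygotes minus wild type, and for Plxna3, Sema6d, Efnb3 and, barely, Robo1 in homozygotes minus heterozygotes; Robo4 and Ntn1 are not drawn because some of their libraries had 0 counts.

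Semaphorin ligands summed to 46.4 ± 7.91 CPM per kb in homozygotes, 48.6 ± 3.15 CPM per kb in heterozygotes and 47 ± 4.52 CPM per kb in wild type mice (SD, n = 4), and no member was called. Values below are given for replicates 1 to 4 of each genotype in turn. Sema7a, which binds Plxnc1 and integrins, was at 46.5, 56, 36.8 and 32.9 CPM in homozygotes, 48.6, 44.8, 49.3 and 36.8 CPM in heterozygotes and 51, 42.1, 47.5 and 47.3 CPM in wild type mice. Its homozygote minus wild type log2 difference was -0.13 (SE 0.16), and the groups overlapped. Sema6b, a transmembrane ligand of plexin-A receptors, was at 16.6, 31.4, 27.8 and 25.2 CPM in homozygotes, 18.6, 37.7, 31.4 and 49 CPM in heterozygotes and 23, 28.8, 30 and 36.6 CPM in wild type mice, with its lowest values in homozygote 1 and heterozygote 1. Sema3a (chr5:13396784-13602565, ENSMUSG00000028883), the secreted repellent that acts through Nrp1, was at 52.8, 36.1, 21.5 and 16.1 CPM in homozygotes, 51.7, 18.5, 30.1 and 24.3 CPM in heterozygotes and 39.3, 37.1, 24.5 and 15.3 CPM in wild type mice. Its highest values, 52.8 and 51.7 CPM, were in homozygote 1 and heterozygote 1. Its homozygote minus wild type log2 difference was 0.12 (SE 0.42), and -0.24 without those 2 libraries, so its sign rested on them. Sema6d, a transmembrane ligand of Plxna1, was at 26.7, 33.4, 34.6 and 26.9 CPM in homozygotes, 24.7, 27.9, 21 and 17.3 CPM in heterozygotes and 40, 31.8, 24.7 and 28.3 CPM in wild type mice. Its heterozygote minus wild type log2 difference was -0.46 (SE 0.19) with an edgeR adjusted p of 0.999, the groups overlapped, and 4 of 4 heterozygous libraries were below the wild type median. The other 15 semaphorins kept lay between 0.125 CPM per kb for Sema3f, a secreted ligand of Nrp2, and 5.07 CPM per kb for Sema6a.

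Among semaphorin receptors Plxna1 and Plxna4 had the highest levels per kb, and the 10 plexins and neuropilins together summed to 22 ± 1.68 CPM per kb in homozygotes, 23 ± 4.15 CPM per kb in heterozygotes and 21 ± 4.36 CPM per kb in wild type mice. Plxna1, a signalling receptor of class 3 and class 6 semaphorins, was at 44.8, 53.1, 49 and 58.9 CPM in homozygotes, 60.7, 57.7, 62.7 and 44.1 CPM in heterozygotes and 77.8, 57.7, 56.8 and 53.7 CPM in wild type mice. Wild type 1 was above all other libraries, and the homozygote minus wild type log2 difference was -0.26 (SE 0.15) with an edgeR adjusted p of 0.986. It was -0.11 without wild type 1, and -0.19 without homozygote 1 and heterozygote 1. Plxna4, a related receptor, was at 59.1, 57.6, 74.8 and 72.1 CPM in homozygotes, 44.4, 65.4, 66.2 and 69.1 CPM in heterozygotes and 87.1, 61.8, 54.8 and 51 CPM in wild type mice. Its groups overlapped, and all 3 comparisons gave log2 differences between -0.06 and 0.11. Nrp2, the co-receptor of Sema3f, was at 46.2, 43.8, 40.7 and 29.5 CPM in homozygotes, 60.1, 35.4, 47 and 26.6 CPM in heterozygotes and 47.9, 34.2, 32.5 and 33.5 CPM in wild type mice, again with overlapping groups. Nrp1 (chr8:128359073-128505462, ENSMUSG00000025810), which binds Sema3a, was at 68.4, 20.5, 23.2 and 24.5 CPM in homozygotes, 75.8, 27.5, 21.5 and 14.5 CPM in heterozygotes and 37.4, 26, 11.7 and 11.8 CPM in wild type mice. Homozygote 1 and heterozygote 1 were at 68.4 and 75.8 CPM, and the other 10 libraries ran from 11.7 to 37.4 CPM. Its log2 difference from wild type was 0.65 (SE 0.57) in homozygotes and 0.68 (SE 0.57) in heterozygotes, and without those 2 libraries it was 0.07 and -0.03.

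Plxna3, a plexin-A receptor known to act with Nrp2 in Sema3f signalling, had the smallest p of all members between heterozygotes and wild type. It lies on the X chromosome at chrX:74329066-74344689 (ENSMUSG00000031398). Its level was 7.03, 9.14, 7.01 and 4.75 CPM in homozygotes, 17.7, 12.3, 12.3 and 9.32 CPM in heterozygotes and 8.04, 2.3, 5.54 and 6.05 CPM in wild type mice. Every heterozygous library was above every wild type library and every homozygous library. The log2 difference was 1.23 (SE 0.35) between heterozygotes and wild type, with an unadjusted p of 0.00419 and an adjusted p of 0.999 in edgeR. The homozygote minus heterozygote log2 difference was -0.89 (SE 0.35) with an edgeR adjusted p of 1. Without homozygote 1 and heterozygote 1, the heterozygote minus wild type value was 1.05 and the homozygote minus heterozygote value -0.70. Homozygotes and wild type overlapped, at a log2 difference of 0.35 (SE 0.35). Both comparisons that set Plxna3 apart rest on the same heterozygous libraries. Among all tested genes, 1.48% had every heterozygous library above every wild type library, and 2.94% of members did (Plxna3 and Epha1). In 1.76% of all genes and in 0 of 68 members every heterozygous library was below.

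**Figure D3:**
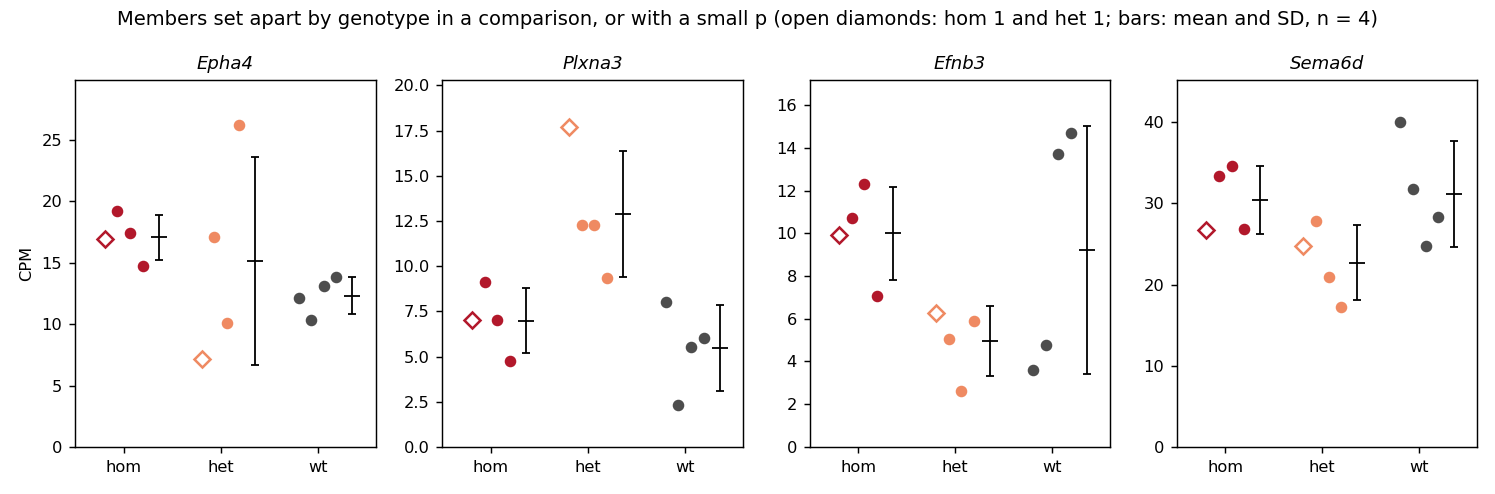
CPM of Epha4, Plxna3, Efnb3 and Sema6d in each library, with homozygotes (hom), heterozygotes (het) and wild type mice (wt) from left to right, open diamonds for homozygote 1 and heterozygote 1, and bars for mean and SD (n = 4). Epha4 of homozygotes lies wholly above wild type, Plxna3 of heterozygotes lies above both other genotypes, and Efnb3 of homozygotes lies above heterozygotes; Sema6d overlaps in every comparison.

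Ephrin-A ligands summed to 35.8 ± 5.84 CPM per kb in homozygotes, 32.9 ± 1.82 CPM per kb in heterozygotes and 32.2 ± 3.15 CPM per kb in wild type mice, most of it Efna3. Efna3 was at 71.2, 68.2, 51.1 and 53.3 CPM in homozygotes, 54.2, 60.9, 56 and 65.3 CPM in heterozygotes and 61.4, 67.7, 57.2 and 54.7 CPM in wild type mice. It had the lowest coefficient of variation of the guidance genes, and the 95% interval of its homozygote minus wild type log2 difference ran from -0.26 to 0.29. Efna1, an ephrin-A also known from endothelial cells, was at 15, 6.34, 9.83 and 7.62 CPM in homozygotes, 12.5, 3.22, 6.77 and 4.27 CPM in heterozygotes and 7.69, 5.92, 5.56 and 4.27 CPM in wild type mice. The homozygote minus wild type log2 difference of Efna1 was 0.73 (SE 0.41) with an edgeR adjusted p of 0.986, and 0.44 without homozygote 1 and heterozygote 1. All 4 homozygous libraries were above the wild type median, but the groups overlapped. Efna5, a ligand of Epha4, averaged 15.2 ± 4.41 CPM in homozygotes, 16.1 ± 5.2 CPM in heterozygotes and 12 ± 3.72 CPM in wild type mice (SD, n = 4), with 21.7 and 23.9 CPM in homozygote 1 and heterozygote 1.

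EphA receptors summed to 14.3 ± 1.93 CPM per kb in homozygotes, 13.7 ± 3.4 CPM per kb in heterozygotes and 13.9 ± 2.14 CPM per kb in wild type mice. Epha10, whose kinase domain is thought to be inactive, was at 29.1, 43.7, 58.1 and 42.5 CPM in homozygotes, 25.8, 49.8, 62 and 48.8 CPM in heterozygotes and 28.7, 44.8, 48 and 60.5 CPM in wild type mice. Epha5, a receptor of ephrin-A ligands, was at 30.8, 32.2, 36.5 and 36.8 CPM in homozygotes, 33, 21.9, 35 and 34.1 CPM in heterozygotes and 28.4, 46.2, 39.9 and 38.4 CPM in wild type mice. Both overlapped between all genotypes. Epha4, at chr1:77367185-77515088 (ENSMUSG00000026235), binds ephrins of both classes and directs motor axons to the dorsal limb. It is also known as a modifier of disease in ALS models. It was at 16.9, 19.2, 17.4 and 14.7 CPM in homozygotes, 7.13, 17.1, 10.1 and 26.2 CPM in heterozygotes and 12.1, 10.3, 13.1 and 13.8 CPM in wild type mice. All 4 homozygous libraries were above all 4 wild type libraries, while the heterozygous libraries spanned the range of both. The homozygote minus wild type log2 difference was 0.47 (SE 0.32), with an unadjusted p of 0.168 and an adjusted p of 0.986 in edgeR. It was 0.48 without homozygote 1 and heterozygote 1. Epha4 was 1 of 68 members (1.47%) wholly above wild type, where the background was 1.29%, and 0 of 68 were wholly below, where the background was 2.12%. Epha1, the other member wholly above wild type in heterozygotes, averaged 0.414 ± 0.271 CPM in homozygotes, 0.659 ± 0.198 CPM in heterozygotes and 0.311 ± 0.0823 CPM in wild type mice (SD, n = 4). Its span overlaps that of Zyx, an entry with far more counts. Whether their exons overlap was not checked, so the assignment of its reads is uncertain.

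Ephrin-B ligands were the family with the lowest heterozygote sum relative to both other genotypes, at 4.37 ± 1.43 CPM per kb in homozygotes, 2.59 ± 0.513 CPM per kb in heterozygotes and 4.16 ± 1.38 CPM per kb in wild type mice. Efnb3, a transmembrane ephrin that keeps axons from crossing the spinal midline through Epha4, lies at chr11:69554092-69560205 (ENSMUSG00000003934). It was at 9.92, 10.7, 12.3 and 7.05 CPM in homozygotes, 6.25, 5.05, 2.62 and 5.89 CPM in heterozygotes and 3.62, 4.78, 13.7 and 14.7 CPM in wild type mice. Every homozygous library was above every heterozygous library, whereas wild type libraries 1 and 2 were low and 3 and 4 high. The homozygote minus heterozygote log2 difference was 1.01 (SE 0.44) with an edgeR adjusted p of 1, and that of heterozygotes minus wild type was -0.89 (SE 0.44) with an adjusted p of 0.999. The heterozygote minus wild type value was -0.56 without wild type 4 and -1.16 without wild type 1. Without homozygote 1 and heterozygote 1 it was -1.02, and the homozygote minus heterozygote value was 1.14. Between homozygotes and heterozygotes, 1 member was wholly above (1.47%, background 1.03%) and 1, Plxna3, wholly below (1.47%, background 0.998%). Efnb2, the ephrin-B also known from arteries, was at 3.09, 9.32, 5.84 and 3.03 CPM in homozygotes, 4.41, 6.88, 5.78 and 3.39 CPM in heterozygotes and 11.1, 3.28, 2.66 and 4.15 CPM in wild type mice, with overlapping groups.

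EphB receptors summed to 19.3 ± 1.79 CPM per kb in homozygotes, 20.4 ± 3.03 CPM per kb in heterozygotes and 20 ± 2.37 CPM per kb in wild type mice, a difference between genotypes smaller than the spread. Ephb6 was at 47.6, 59, 50.9 and 45.1 CPM in homozygotes, 46.6, 46.5, 51.3 and 68.5 CPM in heterozygotes and 63.9, 57.1, 39.9 and 40.1 CPM in wild type mice, with overlapping groups. Ephb1, which steers medial motor axons to the ventral limb, was at 20.7, 25, 40.2 and 31.4 CPM in homozygotes, 32.6, 34.9, 37.6 and 39.7 CPM in heterozygotes and 24, 41, 40.2 and 46.8 CPM in wild type mice. Its homozygote minus wild type log2 difference was -0.37 (SE 0.22) with an edgeR adjusted p of 0.986, with overlapping groups, and -0.24 without homozygote 1 and heterozygote 1.

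Slit ligands had the highest homozygote sum relative to wild type, at 15.6 ± 3.37 CPM per kb in homozygotes, 12.6 ± 3.71 CPM per kb in heterozygotes and 10.7 ± 5.94 CPM per kb in wild type mice, a difference of means smaller than the wild type SD. Slit3, a secreted repellent at chr11:35121224-35708507 (ENSMUSG00000056427), was at 94.2, 67.5, 76.7 and 41.2 CPM in homozygotes, 82.7, 37, 63.6 and 39.9 CPM in heterozygotes and 65.9, 48.8, 23.3 and 20.9 CPM in wild type mice. It had the smallest p of all members between homozygotes and wild type: the log2 difference was 0.82 (SE 0.39), with an unadjusted p of 0.0573 and an adjusted p of 0.986 in edgeR. The 95% interval ran from -0.03 to 1.66, and the difference was 0.64 without homozygote 1 and heterozygote 1. All 4 homozygous libraries were above the wild type median, but homozygote 4 lay below wild type 1 and 2. Over the alternatives run, including the loss of each library in turn, this log2 difference ranged from 0.61 to 1.18 and the adjusted p from 0.389 to 1. Slit2, the best-studied Slit, at chr5:47983155-48306282 (ENSMUSG00000031558), was at 84.7, 69.6, 58.1 and 60.9 CPM in homozygotes, 72.9, 58.2, 70 and 46.6 CPM in heterozygotes and 64.4, 56.6, 37.8 and 59.1 CPM in wild type mice. Its log2 difference of homozygotes from wild type was 0.33 (SE 0.19), with an edgeR adjusted p of 0.986, and 0.21 without those 2 libraries. Slit1 averaged 7.15 ± 5.66 CPM in homozygotes, 4.76 ± 3.66 CPM in heterozygotes and 11.3 ± 13.6 CPM in wild type mice (SD, n = 4), and wild type 1 alone reached 31.7 CPM. The 3 libraries with the most Slit3, homozygote 1, heterozygote 1 and homozygote 3, included the 2 with the highest motor neuron marker sums, and in wild type mice replicate 1 was highest in both. The part of motor neuron content in the Slit3 values was not tested.

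Robo receptors were lower per length than their ligands and summed to 1.77 ± 0.334 CPM per kb in homozygotes, 2.31 ± 1.08 CPM per kb in heterozygotes and 2.63 ± 0.538 CPM per kb in wild type mice. Robo1 (chr16:72663149-73046095, ENSMUSG00000022883) was at 9.3, 14.4, 10.7 and 16.7 CPM in homozygotes, 7.59, 24, 21.3 and 33.2 CPM in heterozygotes and 18.3, 16.2, 18.6 and 20.1 CPM in wild type mice. Its lowest values were 9.3 CPM in homozygote 1 and 7.59 CPM in heterozygote 1. Its homozygote minus heterozygote log2 difference was -0.75 (SE 0.35) with an edgeR adjusted p of 1, and -0.91 without those 2 libraries, where the unadjusted p was 0.00145 and the adjusted p was 1. Robo2 (chr16:73892306-74411825, ENSMUSG00000052516) was at 9.96, 18.2, 12.3 and 14.3 CPM in homozygotes, 5.72, 16.5, 19.7 and 20.8 CPM in heterozygotes and 21.4, 20.8, 14.1 and 26.7 CPM in wild type mice. The log2 difference of homozygotes from wild type was -0.60 (SE 0.35) with an edgeR adjusted p of 0.986, and -0.47 without those 2 libraries. In this gene 4 of 4 homozygous libraries were below the wild type median, with overlapping groups. Both genes lie on chromosome 16 and both were lowest where interneuron markers were lowest. In those 2 libraries 10.6% of all tested genes were likewise below the other 10. The part of interneuron content in the Robo1 and Robo2 values was not tested.

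Robo4, the Robo known from endothelial cells, was found in few libraries. Its counts were 101, 24, 0 and 0 in homozygotes, 0 in all 4 heterozygous libraries, and 217, 0, 11 and 11 in wild type mice. Against a floor of 3 counts over the heterozygotes, it was at least 80.1-fold lower in heterozygotes than in wild type mice. The bound was 9.98-fold without wild type 1, its highest library. In the same way it was at least 43.8-fold higher in homozygotes than in heterozygotes, and 11.2-fold without homozygote 1. The edgeR adjusted p was 0.999 between heterozygotes and wild type and 1 between homozygotes and heterozygotes. The 10 endothelial markers summed to 18.1 to 44.2 CPM in homozygotes, 11.7 to 26.6 CPM in heterozygotes and 23.7 to 46 CPM in wild type mice, and none was at 0 in every library. Their part in the Robo4 values was not tested. These floors cover counting error only.

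Netrins and netrin-G ligands summed to 6.55 ± 1.76 CPM per kb in homozygotes, 7.01 ± 1.73 CPM per kb in heterozygotes and 6.84 ± 0.991 CPM per kb in wild type mice. Ntng1, a membrane-anchored netrin-G at synapses, was at 18.6, 36.6, 20.4 and 23 CPM in homozygotes, 27.2, 32.2, 33 and 24.9 CPM in heterozygotes and 19.5, 25.9, 31.2 and 34.2 CPM in wild type mice. Ntn4, a secreted netrin of basement membranes, was at 8.21, 5.93, 3.61 and 2.79 CPM in homozygotes, 7.7, 1.56, 1.39 and 2.48 CPM in heterozygotes and 3.52, 3.42, 2.75 and 6.71 CPM in wild type mice. Groups of both genes overlapped, and Ntn4 was highest in homozygote 1 and heterozygote 1. Ntn1, the floor plate attractant of the embryo, was sparse, at 1.67, 0.504, 0.734 and 0.105 CPM in homozygotes, 0.0986, 0.139, 0.045 and 0 CPM in heterozygotes and 0.384, 1.5, 0.416 and 0.0357 CPM in wild type mice. Its heterozygote minus wild type log2 difference was -3.01 (SE 1.32) and its homozygote minus heterozygote log2 difference 3.38 (SE 1.34), with edgeR adjusted p of 0.999 and 1. Without homozygote 1 and heterozygote 1 these differences were -3.20 and 2.82. The 4 heterozygous libraries were low, but so were homozygote 4 and wild type 4, and the groups overlapped.

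The netrin receptors were dominated by Unc5a, and the family summed to 14.2 ± 2.4 CPM per kb in homozygotes, 14.2 ± 2.99 CPM per kb in heterozygotes and 17 ± 2.39 CPM per kb in wild type mice. Unc5a, a repulsive netrin receptor, was at 38, 49.4, 40.5 and 61.1 CPM in homozygotes, 46.2, 59.7, 52.7 and 32.5 CPM in heterozygotes and 63.5, 54.1, 66.3 and 53 CPM in wild type mice. Its log2 difference from wild type was -0.33 (SE 0.19) in homozygotes and -0.31 (SE 0.19) in heterozygotes, with edgeR adjusted p of 0.986 and 0.999. Without homozygote 1 and heterozygote 1 it was -0.23 in homozygotes and -0.29 in heterozygotes. The wild type libraries serve both comparisons. Unc5d, which also binds Flrt2, was at 11, 8.47, 14.4 and 13.9 CPM in homozygotes, 17.2, 13.4, 9.97 and 6.72 CPM in heterozygotes and 17.7, 3.94, 15.5 and 6.24 CPM in wild type mice, and the wild type libraries alone spanned most of its range. Unc5c, a repulsive receptor that motor neurons use in the embryo, was at 16.6, 9.35, 12.5 and 10.7 CPM in homozygotes, 18.9, 16.7, 10.9 and 16.6 CPM in heterozygotes and 16.6, 15, 8.96 and 11.6 CPM in wild type mice, with overlapping groups throughout. Dcc, the attractive receptor, was at 0.986, 6.16, 2.07 and 0.368 CPM in homozygotes, 2, 1.02, 4.57 and 0.97 CPM in heterozygotes and 6.97, 3.73, 2.02 and 1.2 CPM in wild type mice. The homozygote minus wild type log2 difference of Dcc was -0.54 (SE 0.83), with a 95% interval from -2.33 to 1.26. At this spread neither the size nor the sign of the difference is settled.

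**Figure D4:**
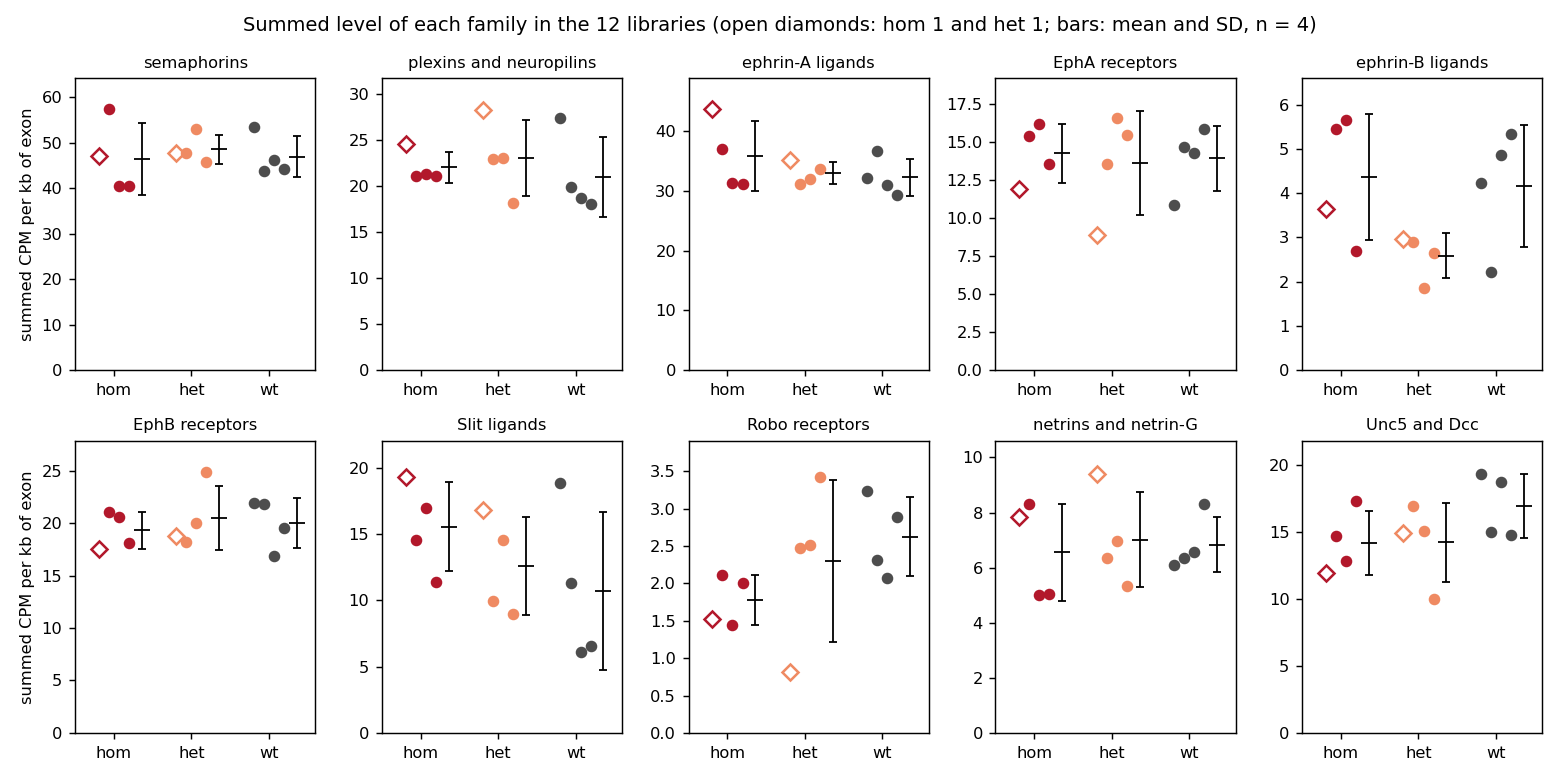
Summed CPM per kb of exon of each family in each library, with homozygotes (hom), heterozygotes (het) and wild type mice (wt) from left to right, open diamonds for homozygote 1 and heterozygote 1, and bars for mean and SD (n = 4). The genotypes overlap in all 10 families; heterozygotes have the lowest mean for ephrin-B ligands (2.59 CPM per kb) and homozygotes the highest for Slit ligands (15.6 CPM per kb).

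Among the members that set homozygote 1 and heterozygote 1 apart, the receptors were Nrp1, Robo1 and Robo2, and the ligands lay on both sides. In both libraries, 10 of 68 members (14.7%) were above all other 10 libraries, where 10.3% of all tested genes were, and 8 members (11.8%) were below them, where 10.6% were. The members' shares were therefore near those of all genes. Above were Efna1, Efna5, Nrp1, Ntn4, Ntng2, Sema3a, Sema3f, Sema6a, Slit2 and Slit3, of which Ntng2 shares its place with the entry 6530402F18Rik, whose counts equalled 78% of its own. Slit3 had 94.2 and 82.7 CPM in homozygote 1 and heterozygote 1, against 20.9 to 76.7 CPM in the other 10, and Slit2 had 84.7 and 72.9 CPM, against 37.8 to 70 CPM. Below were Efna2, Robo1, Robo2, Sema5b, Sema6b, Sema6c, Slit1 and the short Ntng1 entry. Sema5b, a transmembrane semaphorin, had 1.65 and 2.23 CPM, against 6.26 to 15.4 CPM, and Slit1 had 1.33 and 0.606 CPM, against 2.87 to 31.7 CPM. The summed motor neuron and inhibitory interneuron markers given above differed in the same 2 libraries. In both, 7 of 13 motor neuron markers were above all others and 1, Esrrg, was below, while 8 of 10 inhibitory interneuron markers were below. Over the 12 libraries Nefh made up 60.2% of the motor neuron sum and Pvalb 54.8% of the inhibitory sum. The part of cell content in the members' values was not tested.

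**Figure D5:**
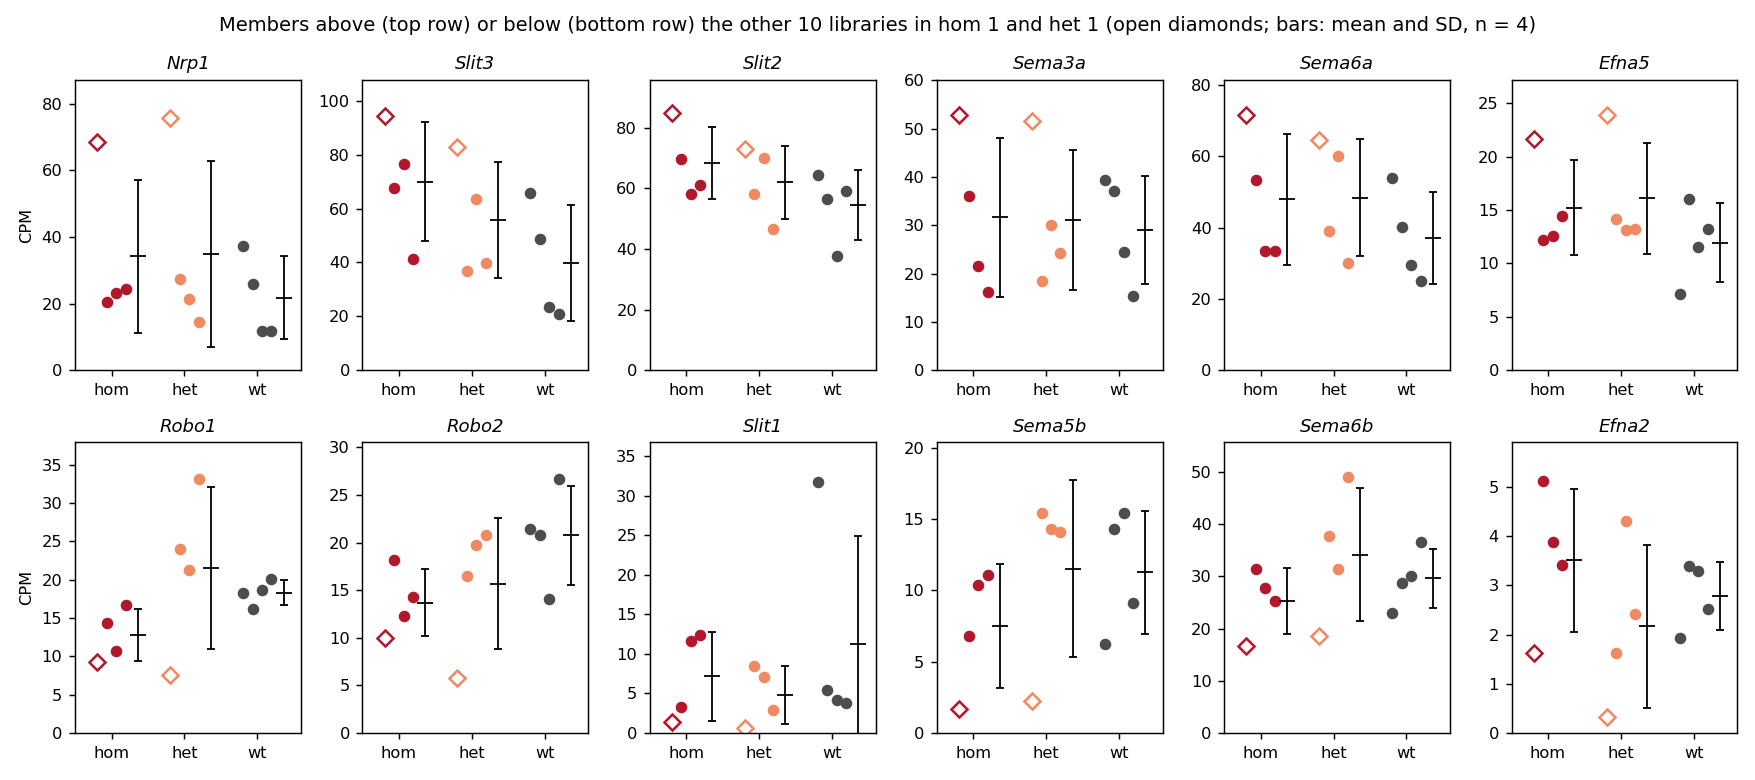
CPM of 12 guidance genes in each library, by genotype from homozygotes (hom) to wild type (wt), with homozygote 1 and heterozygote 1 as open diamonds and bars for mean and SD (n = 4). In the top row (Nrp1, Slit3, Slit2, Sema3a, Sema6a, Efna5) both diamonds lie above all other libraries, and in the bottom row (Robo1, Robo2, Slit1, Sema5b, Sema6b, Efna2) below them; the SD bar of Slit1 in wild type mice is cut at 0.

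Other genes of guidance signalling were not called either. Of 59 such genes, among them the semaphorin mediator Crmp1, 58 were tested. With edgeR, 0 of 58 passed in each comparison. At an unadjusted p below 0.05 they numbered 2 (3.45%, background 4.82%) between homozygotes and wild type, 4 (6.9%, background 4.1%) between heterozygotes and wild type and 1 (1.72%, background 2.97%) between homozygotes and heterozygotes. Their median log2 differences were 0.00, 0.03 and -0.03 in the same order. The smallest p between homozygotes and wild type was that of Flrt1, a membrane protein that binds Unc5 receptors. Flrt1 had 4.81 ± 0.93 CPM in homozygotes and 8.73 ± 3.82 CPM in wild type mice (SD, n = 4). Its log2 difference was -0.86 (SE 0.35) with an edgeR adjusted p of 0.986. Adam10, a protease that cleaves ephrins, had 14.4 ± 2.34 CPM in homozygotes and 22.8 ± 8.47 CPM in heterozygotes, and the edgeR adjusted p was 1. In homozygote 1 and heterozygote 1, 9 of these 58 genes (15.5%, background 10.3%) were above and 8 (13.8%, background 10.6%) below the other 10 libraries.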

How the data were processed

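The PicoPure kit extracted the RNA, and the SMART-seq v4 Ultra Low Input and Nextera XT kits made the libraries, per the labels' protocols. These kits add no molecular identifiers and keep no strand. The authors deposited raw counts per gene. The submitters' processing notes name Trim Galore 0.4.3, HISAT2 2.0.5 and build GRCm38. How counting was done (program, annotation, strand) is not given in the sources used here.

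Of 25965 entries, 20011 had a count, and filterByExpr of edgeR 4.0.16 (R 4.3.3) kept 16338. Counts were scaled by TMM, with factors from 0.94 to 1.03. A quasi-likelihood fit over all 12 libraries, with genotype as the group, gave two-sided tests adjusted by Benjamini-Hochberg over all tested genes, with calls below 0.05. It was tested on simulated counts with 50 genes changed in homozygotes at each fold. Between homozygotes and wild type it recovered 8% of them at 1.5-fold, 48% at 2-fold, 68% at 4-fold and 82% at 8-fold. There were 4 false calls. The changed genes were drawn only from those above a set mean level, and libraries that stand apart were not simulated. The shares recovered thus do not describe the sparsest members. A count of 0 members called therefore does not exclude changes of these sizes. Levels per kb used the merged exons of all GENCODE M21 transcripts inside each deposited entry, so ranks and family sums depend on that length. Slit2, at 24 kb, had a mean of 61.6 CPM and 2.57 CPM per kb. Slit3, at 6.07 kb, had 55.1 CPM and 9.09 CPM per kb. Libraries of the same genotype differed by far more than counting error, with a smallest chi-square of 62.8 per entry over 18 pairs.

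The members, gene lists and markers were chosen with earlier results of these data known. Named with values in every library were the 2 highest members per kb of each family, members with a textbook role in motor neurons, and the 5 smallest p-values of each comparison. Other members are named for their rank, overlap or position in 2 libraries. Alternatives were DESeq2 1.42.0, limma-voom (limma 3.58.1), other size factors, no filter or a stricter filter, fewer libraries and the replicate number as a block.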

Additional observations from a re-analysis of the deposited data

Results flagged for a closer look

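In 6 of 89 sets, each a named member in the 4 libraries of a genotype, a library lay far from the other 3 for its range. For independent values with a normal spread, this cutoff flags about 1 in 20 such sets. CPM need not have that spread, and the sets share libraries, so the count of flags is not a test. Nrp1 was 68.4 CPM in homozygote 1 and 20.5 to 24.5 CPM in the other homozygotes. Plxna4 was 44.4 CPM in heterozygote 1 and 65.4 to 69.1 CPM in the other heterozygotes. Epha5 was 21.9 CPM in heterozygote 2 and 33 to 35 CPM in the others of its genotype. Wild type 1 held the remaining 3: Plxna1 was 77.8 CPM there and 53.7 to 57.7 CPM in the other wild type libraries, Nrp2 was 47.9 CPM and 32.5 to 34.2 CPM, and Robo4 was 2.87 CPM and 0 to 0.163 CPM. Wild type 1 also had the highest sum of motor neuron markers of its genotype, 9760 CPM, whose part in these values was not tested.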

How the results depend on the processing

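The count of 0 members called held in each comparison under every alternative run, and for the 5 members with the smallest p in each comparison, all 294 values under an alternative kept their direction and their side of the threshold. Some other members turned sign with homozygote 1 and heterozygote 1 left out, among them Sema3a in homozygotes minus wild type (-0.24, against 0.12 with them) and Nrp1 in heterozygotes minus wild type (-0.03, against 0.68). Counts over all genes moved more. Between homozygotes and wild type, edgeR called 1 gene of all tested and DESeq2 13. No gene was called (0) without the filter, with only the 8 libraries compared, or with homozygote 1 and heterozygote 1 left out together, and leaving out each library in turn gave 0 to 0. DESeq2 called 13 genes between heterozygotes and wild type and 8 between homozygotes and heterozygotes, where edgeR called 0. The cause was not tested. With the replicate number as a block, 1 gene was called between homozygotes and wild type, 0 in each other comparison, and 0 members. Deviations of libraries with the same number correlated from -0.0528 to 0.454, and those of libraries with different numbers from -0.229 to 0.127. The value of 0.454 was that of homozygote 1 with heterozygote 1, and the next highest among libraries with the same number was 0.114. The labels name no pairs, and the main fit used none. Whether replicates 1 share a factor was not settled. With a mean of 100 or more counts, 60 members were kept in place of 68. Depth limits the 17 entries under 200 mean counts most.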
